A study of Homo sapiens with 8 samples.

Results

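The genes described here are 7 grouped around the MondoA glucose sensor: the factor genes MLXIP, MLXIPL and MLX, the alpha-arrestin genes TXNIP, ARRDC4 and ARRDC3, and KLF10. Whether ARRDC3 and KLF10 report on the sensor in these cells was not tested. The 7 genes were chosen by name. Each symbol was represented by its transcript cluster (the set of array probes that reads one gene) with the highest mean over the 8 arrays. All 7 were found, in 8 of the 53617 transcript clusters with values, and all 8 clusters passed the filter on low signal, which kept 28946 in all. The choice by mean bore on TXNIP alone, whose 2 clusters, 16669796 and 17117443, had means of 8.36 and 5.08 on the log2 scale; the first represents the gene, and the second is given beside it as a further reading of the same RNA. The names were proposed with earlier results of these arrays known.

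Expression was measured in HEK293T cells, derived from human embryonic kidney and expressing SV40 large T antigen, grown with 10% fetal bovine serum in every condition. A first set of 3 arrays held cells with a lentiviral shRNA: 1 control clone (shControl) and 2 clones with different shRNAs against TET1 (shTET1#1 and shTET1#2), each shRNA array thus being 1 clone. A second set of 5 arrays held cells transfected with a plasmid and sorted by fluorescence 3 days later: the empty vector (Vector control), the constructs TET1-CD and TET1-FL (wild type below), and mTET1-CD and mTET1-FL (mutant below), with 1 array each; the labels do not spell out m, CD or FL. TET1 is a dioxygenase that oxidises 5-methylcytosine, and the design set its loss against its supply, and constructs with and without the m. The labels state neither the glucose content of the medium nor the density of the cultures at harvest.

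MondoA, the product of MLXIP, and its relative ChREBP, the product of MLXIPL, are basic helix-loop-helix leucine zipper factors that bind DNA as partners of MLX. Glucose 6-phosphate and related sugar phosphates drive them into the nucleus, where they act on paired E-boxes called carbohydrate response elements. TXNIP, which binds thioredoxin and lowers glucose uptake, and ARRDC4, its close relative, are the best known MondoA targets in cultured cells, and their messenger RNA is widely used as a readout of glucose 6-phosphate. ARRDC3 belongs to the same alpha-arrestin family and takes part in receptor traffic, and KLF10 is a zinc finger repressor that responds to TGF-beta and, in liver, to sugar.

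The promoters of the 3 alpha-arrestin genes are shown because these genes varied among the arrays and because the sensor is known to act through E-boxes. Each run holds the 250 bases before the outermost RefSeq start site, read 5′ to 3′ on the gene's own strand in build GRCh38.p14. Capitals mark every half-site CACGNG on either strand, so that the perfect E-box CACGTG, which is one such half-site, is in capitals too.
TXNIP, chr1:145996580-145996829, minus strand: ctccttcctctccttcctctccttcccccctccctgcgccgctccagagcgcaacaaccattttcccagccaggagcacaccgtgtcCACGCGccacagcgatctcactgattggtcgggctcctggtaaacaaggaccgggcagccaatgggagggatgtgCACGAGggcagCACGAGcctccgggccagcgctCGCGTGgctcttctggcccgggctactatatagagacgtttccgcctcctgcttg
ARRDC4, chr15:97960453-97960702, plus strand: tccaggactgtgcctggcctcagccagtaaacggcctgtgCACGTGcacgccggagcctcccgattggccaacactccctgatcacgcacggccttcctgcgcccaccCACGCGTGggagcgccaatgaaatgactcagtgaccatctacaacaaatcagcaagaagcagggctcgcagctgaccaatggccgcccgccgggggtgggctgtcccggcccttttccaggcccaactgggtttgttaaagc
ARRDC3, chr5:91383318-91383567, minus strand: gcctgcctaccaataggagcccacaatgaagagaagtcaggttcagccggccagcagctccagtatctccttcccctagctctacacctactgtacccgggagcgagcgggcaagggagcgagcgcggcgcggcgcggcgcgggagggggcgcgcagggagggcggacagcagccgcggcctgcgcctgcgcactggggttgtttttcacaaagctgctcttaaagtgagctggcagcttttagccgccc

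The TXNIP run held 4 half-sites. Of these, 2 stood 5 bases apart, from base -88 to base -72 before the start site, in the spacing of a carbohydrate response element. The second TXNIP start site in the table had none in its window. ARRDC4 had a perfect E-box from -210 to -205 and a pair of overlapping half-sites between -142 and -135. The printed ARRDC3 run had none, and the window of a second ARRDC3 start site had 1 half-site. Of the other members with an entry, MLX had 1 perfect E-box from -50 to -45, and neither MLXIP nor MLXIPL had a match. The MLXIPL entry was not at the outermost start site of that gene, whose window was not searched. Over all 35116 promoter windows of 300 bases (250 before and 50 after a start site), 30.5% held at least 1 half-site, 7.26% held a perfect E-box and 0.0769% (27 windows) held 2 half-sites 5 bases apart. A match describes letters in a window and is no measurement of binding.

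**Figure D1:**
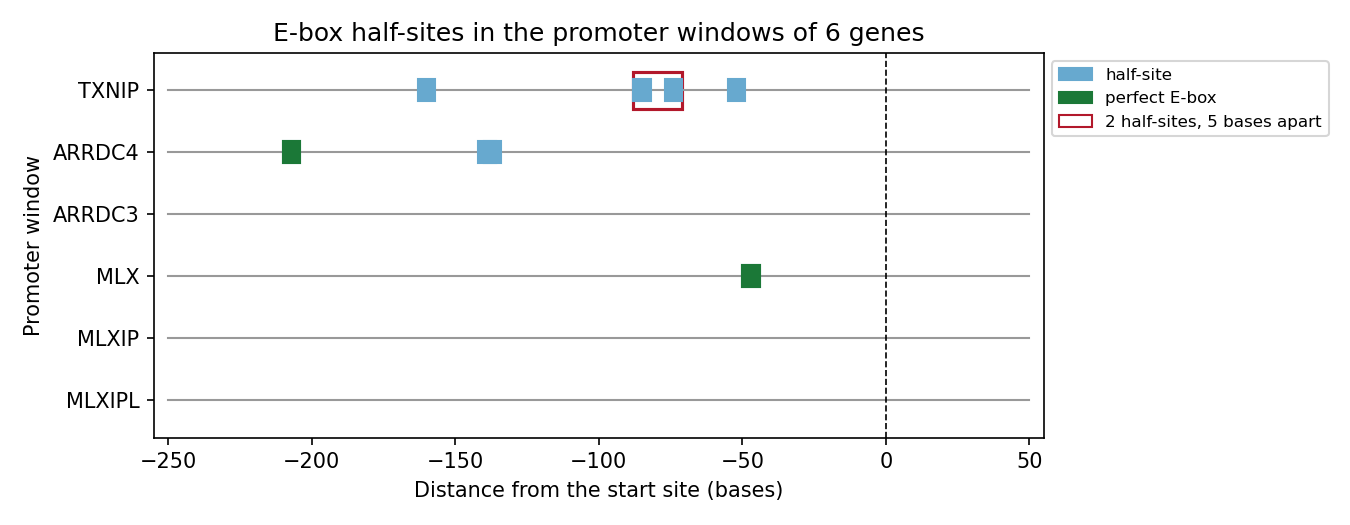
Positions of half-sites (blue), perfect E-boxes (green) and the pair of half-sites 5 bases apart (red outline) in the 300-base windows of 6 genes, by distance from the start site in bases. TXNIP is the gene with the pair, between -88 and -72, and the windows drawn for ARRDC3 and MLXIP are empty. Matches are drawn for outermost start sites only. MLXIPL has no such entry, so its line is empty whatever that window holds.

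The 8 arrays had medians of 5.47 to 5.55 (log2), and pairs of arrays correlated with r between 0.932 and 0.988 over the kept clusters. TET1 signal in its cluster 16705381 was 9.29 in shControl, 8.62 in shTET1#1 and 9.14 in shTET1#2, and in its cluster 16715048 it was 5.71, 5.27 and 6.20, above the control in the second clone, which is called the array labelled shTET1#2 below. The 4 plasmid arrays stood between 10.42 and 12.47 in both clusters, and the vector at 9.51 and 5.86. Of 8 genes listed as markers of HEK293, 5 were measured (PAX2, LHX1, VIM, EYA1 and HOXD10), and all 5 lay above the array median on all 8 arrays. Both measured blood genes (CD14, LYZ) and both measured fibroblast genes (DCN, LUM) lay below the median on every array, as did the hepatocyte genes ALB and TF. The other 2 measured hepatocyte genes, APOA1 and TTR, lay above the median on all 8 arrays, at 5.88 to 6.48. Levels in bulk RNA cannot tell fewer cells of a kind from less RNA per cell.

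TXNIP had the widest range of the 7 genes. Its level was 7.49 in shControl, 7.32 in shTET1#1, 6.87 in the array labelled shTET1#2, against 9.64 with the vector, 8.57 with TET1-CD, 8.49 with mTET1-CD, 9.14 with TET1-FL and 9.37 with mTET1-FL. All 5 transfected arrays were thus above all 3 shRNA arrays, and the order within the transfected set ran from the vector over FL to CD. The span of 2.78 (6.85-fold) was larger than that of 99.4% of the kept clusters. Set beside a fitted SD of 0.201 for 1 array, the step of 1.00 between the lowest transfected array and shControl was the largest. TET1-CD and mTET1-CD (0.084 apart) and shControl and shTET1#1 (0.17 apart) were within it. The fitted SD rests on 2 residual degrees of freedom, with no replicate of the vector or shControl. A difference between 2 arrays also varies more than 1 array, so steps set beside the SD here and below are descriptions without a test. The second TXNIP cluster read 4.83, 3.96 and 3.89 in shControl, shTET1#1 and the array labelled shTET1#2, and 6.20, 4.99, 5.07, 6.05 and 5.64 with the vector, TET1-CD, mTET1-CD, TET1-FL and, last, mTET1-FL. Again the 5 transfected arrays were above the 3 shRNA arrays and the vector was highest. Its shRNA and CD values lay below the array medians, so that it passed the filter through the vector and FL arrays alone, and its difference between the 2 sets is given no test.

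An order in which the vector was above both FL arrays, FL above both CD arrays and CD above all 3 shRNA arrays was found in 178 kept clusters (0.615%), 82 of them named. Ranked by range, the cluster that represents TXNIP held rank 4 of the 178. The second TXNIP cluster stood at rank 5, but it passed the filter through the vector and FL arrays alone. Those are the arrays that this order places highest, so the place of the second cluster is not separate evidence. The order was taken from TXNIP itself, so its place there is a description.

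ARRDC4 shared the high vector value. Its level was 9.93 with the vector, 9.38 with TET1-FL and 9.35 with mTET1-FL, 8.61 with TET1-CD and 8.71 with mTET1-CD, and 8.24, 8.76 and 8.08 in shControl, shTET1#1 and the array labelled shTET1#2. The vector and FL arrays were above all shRNA arrays, whereas both CD arrays lay below shTET1#1, so the 2 sets overlapped. Beside a fitted SD of 0.250, the steps from the vector to FL (0.54) and from FL to the next array (0.59) were wider, without a test. Values of shTET1#1, mTET1-CD and TET1-CD were within the SD of each other. The span was 1.85, or 3.60-fold.

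ARRDC3 had another pattern. It stood at 9.87 with TET1-FL and 9.79 with mTET1-FL, at 8.91 with TET1-CD and 8.73 with mTET1-CD, at 8.13 with the vector, and at 7.79, 8.04 and 7.39 in shControl, shTET1#1 and the array labelled shTET1#2. Each of the 4 plasmid arrays was thus above the vector, the reverse of TXNIP and ARRDC4, and the vector was within the SD of 0.239 of shTET1#1 (0.089 apart). The span was 2.48, or 5.57-fold.

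KLF10 was high in every transfected array. Its levels were 9.88 with the vector, 9.89 with TET1-FL and 9.87 with mTET1-FL, which were within the SD of 0.133 of each other. With TET1-CD and mTET1-CD it stood at 9.19 and 9.05, and in shControl, shTET1#1 and the array labelled shTET1#2 at 7.96, 8.15 and 8.32. The 2 sets of arrays did not overlap, and the FL arrays were within the SD of the vector. Those of TXNIP and ARRDC4 had lower values than the vector, without a test. For TXNIP with mTET1-FL the step was 0.27, and 40.3% of kept clusters differed more between those arrays.

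**Figure D2:**
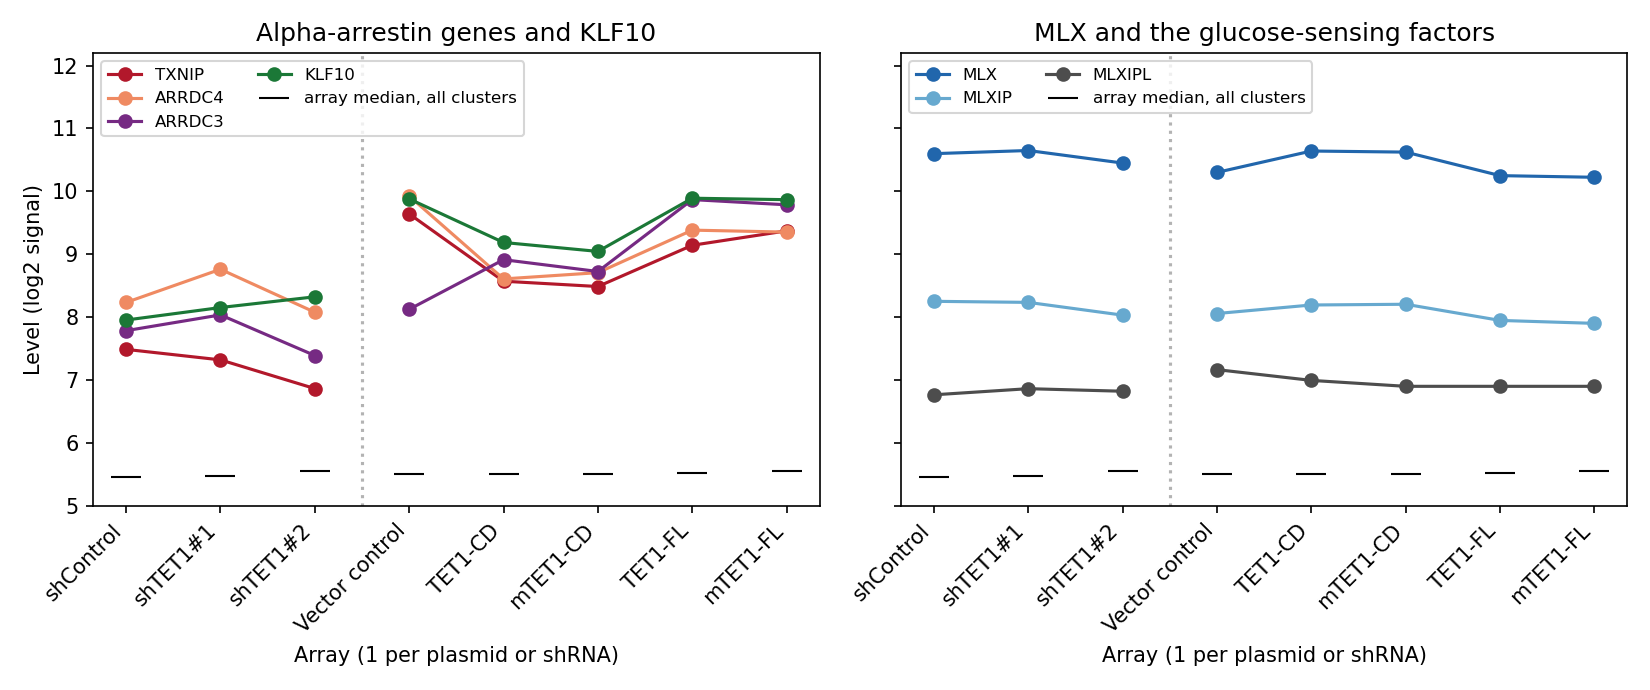
Level of each gene (log2 signal, vertical axis) on each of the 8 arrays, with the 3 shRNA arrays left and the 5 transfected arrays right of the dotted line; each point is 1 array, lines only guide the eye, and black bars are the medians of all clusters. TXNIP, ARRDC4 and KLF10 reach 9.64, 9.93 and 9.88 with the vector, where ARRDC3 is at 8.13, and the 3 factor genes span at most 0.43. Heights of different genes are not comparable, since each is read by its own probes.

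The genes of the sensor itself varied far less. MLXIP, which encodes MondoA, lay between 7.90 (mTET1-FL) and 8.25 (shControl), with 8.24 in shTET1#1, 8.03 in the array labelled shTET1#2, 8.06 with the vector, 8.19 with TET1-CD, 8.21 with mTET1-CD and 7.95 with TET1-FL. MLX, the shared partner, lay between 10.22 (mTET1-FL) and 10.65 (shTET1#1), with 10.60 in shControl, 10.45 in the array labelled shTET1#2, 10.30 with the vector, 10.64 with TET1-CD, 10.62 with mTET1-CD and 10.25 with TET1-FL. Both genes thus had their lowest values in the 2 FL arrays. The steps from TET1-FL up to the next array, 0.084 for MLXIP and 0.051 for MLX, were within the SDs of 0.136 and 0.134. MLXIPL, which encodes ChREBP, was highest with the vector at 7.17 and lowest in shControl at 6.77; it read 7.00 with TET1-CD, 6.86 in shTET1#1, 6.82 in the array labelled shTET1#2, and one identical value of 6.90 on the other 3 arrays. Spans of 0.35, 0.43 and 0.40 were wider than those of 12.0%, 20.4% and 17.4% of the kept clusters, whereas those of TXNIP, ARRDC3, KLF10 and ARRDC4 were wider than 96.3% or more. At least 2-fold between the highest and the lowest array was reached by 4 of the 7 genes, against 22.7% of all kept clusters.

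The 5 transfected, sorted arrays and the 3 lentiviral shRNA arrays differed in TXNIP and KLF10. TXNIP was higher in the transfected arrays by 1.85 ± 0.16 (SE, log2; 3.61-fold), with 5 arrays on one side and 3 on the other (limma adjusted p = 0.0263). KLF10 was higher by 1.53 ± 0.10, or 2.89-fold (limma adjusted p = 0.0203). These 2 of 7 members passed the threshold of 0.05, against 815 of 28946 clusters, or 2.82% (1.86% higher and 0.957% lower). ARRDC3 and ARRDC4 had differences of 1.17 ± 0.18 and 0.99 ± 0.19 and did not pass (limma adjusted p = 0.0519 and 0.0656). MLXIPL was at 0.20 ± 0.093, MLX at -0.18 ± 0.10 and MLXIP at -0.13 ± 0.10, none of them called (limma adjusted p = 0.268, 0.346 and 0.502). At an unadjusted p under 0.05 stood 4 of the 7 genes, against 25% of all clusters. Fitted differences were above 0 for 5 of 7 genes, against 52.7%, and at least 2-fold higher for 3 of 7, against 1.23%, with 0 at least 2-fold lower, against 0.522%.

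Of the 7 genes, TXNIP, ARRDC3, KLF10 and MLXIPL had all 5 transfected arrays above all 3 shRNA arrays, against 8.18% of kept clusters. For MLXIPL and ARRDC3 the gap between the sets was 0.037 and 0.089, within the fitted SDs of 0.121 and 0.239. Delivery by lentivirus or plasmid, cloning, sorting, time since transfection and TET1 itself all differ between the 2 sets and cannot be told apart. Of the 5 transfected arrays 4 carry a TET1 plasmid, and of the 3 shRNA arrays 2 carry an shRNA against TET1. TET1 signal was higher in the transfected arrays in both of its clusters, past the adjusted p threshold. Its part in the calls of TXNIP and KLF10 was not tested. Both calls rest on 2 residual degrees of freedom: leaving out any 1 of the 4 plasmid arrays left 1 degree and 0 calls among all clusters, with TXNIP at 1.80 to 1.90 (limma adjusted p = 0.381 to 0.407) and KLF10 at 1.51 to 1.55 (limma adjusted p = 0.381 to 0.407), and without the filter on low signal TXNIP and KLF10 were at limma adjusted p = 0.0591 and 0.0534. Over all clusters the calls numbered 160 without the control clone, 1768 without the vector, 1879 without shTET1#1 and 1973 without the array labelled shTET1#2, with TXNIP and KLF10 past the threshold each time. The HEK293 marker EYA1 also differed, by 1.27 ± 0.16 (limma adjusted p = 0.0419), with 6.31 in shControl and 7.66 to 8.65 elsewhere; its part in these results was not tested.

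**Figure D3:**
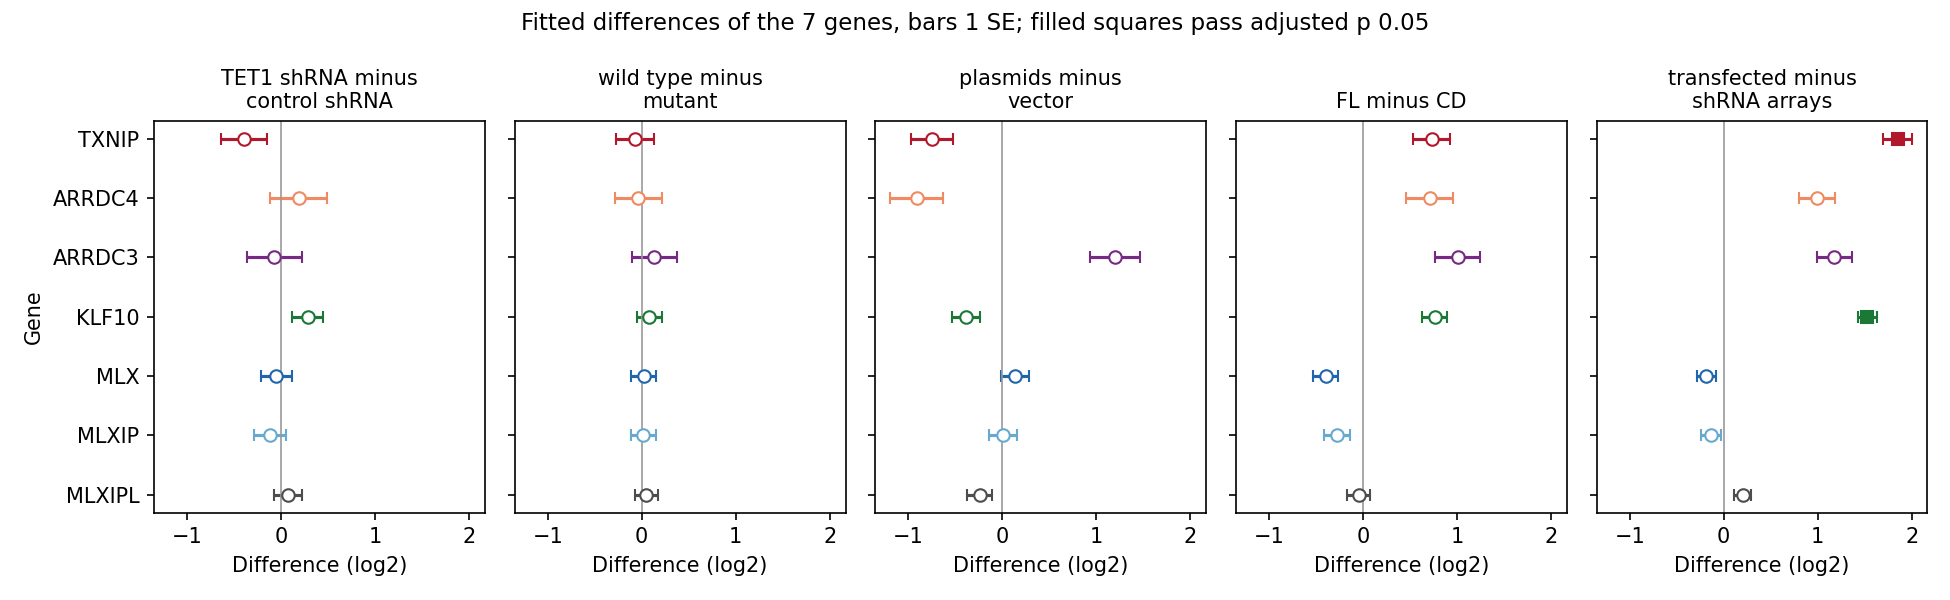
Fitted differences (log2, horizontal axis) of the 7 genes in the 5 comparisons, with bars of 1 SE; filled squares are the values past the adjusted p threshold of 0.05. The 2 squares are TXNIP (1.85) and KLF10 (1.53) in the transfected minus shRNA panel, and in the wild type minus mutant panel every gene lies within 0.14 of 0.

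**Figure D4:**
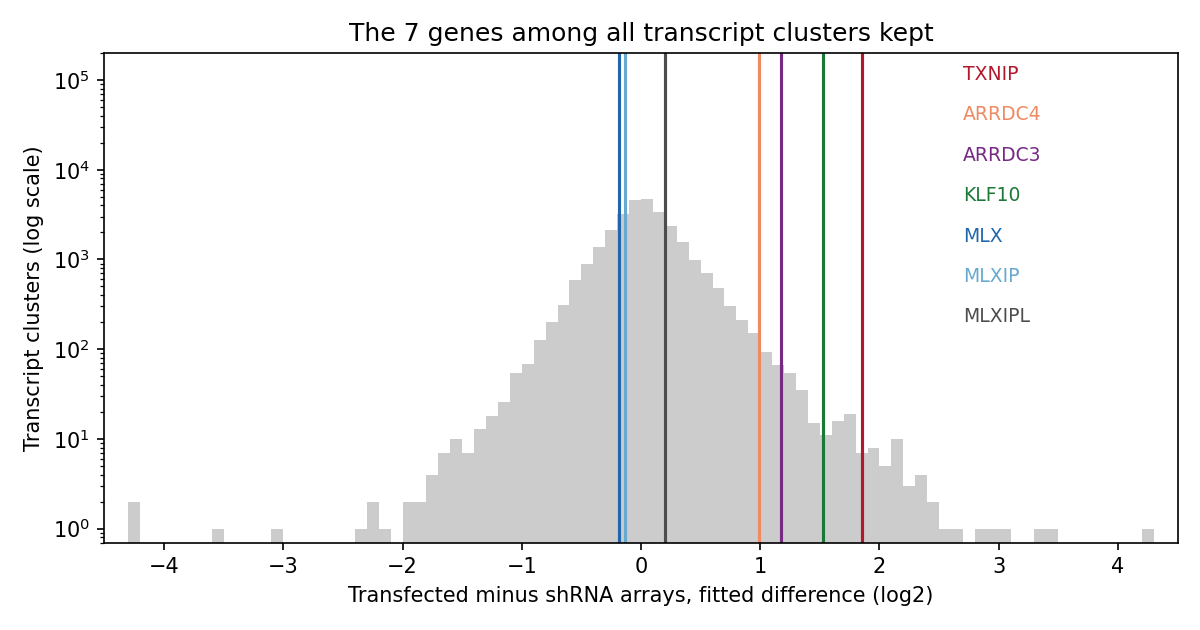
Number of transcript clusters (vertical log axis) by their difference between transfected and shRNA arrays (log2, horizontal axis), over all 28946 kept, with coloured lines for the 7 genes. MLX, MLXIP and MLXIPL lie in the bulk between -0.18 and 0.20, and ARRDC4, ARRDC3, KLF10 and TXNIP lie to the right between 0.99 and 1.85.

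The empty vector against the control shRNA clone was a comparison of 1 array each and so without a test. TXNIP was 2.15 higher with the vector (4.45-fold), KLF10 1.93 (3.80-fold) and ARRDC4 1.69 (3.23-fold). These 3 of 7 genes were at least 2-fold higher, against 2.09% of kept clusters, and 0 were 2-fold lower, against 2.46%. ARRDC3 differed by 0.34, MLXIPL by 0.40, MLXIP by -0.19 and MLX by -0.30. Neither array carries a TET1 plasmid or a TET1 shRNA. Delivery, cloning, sorting and time since transfection differ between them and cannot be told apart, and the cause of these differences was not tested.

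With shRNA against TET1, none of the 7 genes passed (limma, 0 of 28946 called, 0%; 2294 clusters, 7.93%, and 0 of the 7 genes had an unadjusted p under 0.05). TET1 itself was not called either, at -0.41 ± 0.27 and 0.024 ± 0.40 in its 2 clusters (limma adjusted p = 0.782 and 0.997). This comparison thus does not establish a loss of TET1 RNA. TXNIP stood at -0.39 ± 0.25 (limma adjusted p = 0.775). It was 0.17 below the control in shTET1#1 and 0.62 below it in the array labelled shTET1#2, while its second cluster was 0.88 and 0.94 below, with all 3 values under the array medians. The 2 clones disagreed in sign for ARRDC4 (0.53 and -0.16) and ARRDC3 (0.25 and -0.39), and agreed for KLF10 (0.20 and 0.37), MLXIPL (0.097 and 0.057) and MLXIP (-0.017 and -0.22). Differences in MLX were 0.050 and -0.15. Fitted differences were above 0 for 3 of 7 genes, against 47.7% of kept clusters, and 2-fold for 0 of 7, against 0.739% higher and 0.929% lower. In the single clones, too, 0 of 7 were 2-fold away from the control, against 1.09% higher and 0.905% lower in shTET1#1, and 1.12% and 2.16% in the array labelled shTET1#2.

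Wild type and mutant arrays differed by at most 0.14 in the 7 fitted values. The comparison passed in 0 of the 28946 clusters in limma (0%), with 567 clusters (1.96%) and 0 of the 7 genes at an unadjusted p under 0.05. Fitted values of the 7 genes ran from -0.072 ± 0.20 (TXNIP) to 0.14 ± 0.24 (ARRDC3), each with limma adjusted p = 1. Above 0 were 5 of 7, against 50.9% of kept clusters, and 0 of 7 were 2-fold apart, against 0.0553% higher and 0.076% lower. Within CD, wild type minus mutant was 0.084 for TXNIP, -0.10 for ARRDC4, 0.19 for ARRDC3 and 0.14 for KLF10. Within FL it was -0.23, 0.031, 0.083 and 0.023. Over the same pair of FL arrays the second TXNIP cluster was 0.41 higher with wild type, so the 2 clusters differed in sign.

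Against the empty vector, TXNIP and ARRDC4 stood lower and ARRDC3 higher, none past the threshold (limma, 0 of 28946 called, 0%; 4352 clusters, 15%, and 3 of the 7 genes had an unadjusted p under 0.05). TXNIP was lower with the 4 plasmids by a fitted -0.75 ± 0.22 (limma adjusted p = 0.259) and ARRDC4 by -0.91 ± 0.28 (0.264), whereas ARRDC3 was at 1.20 ± 0.27 (0.208). The arrays of the 4 plasmids were all below the vector for TXNIP, ARRDC4 and MLXIPL, as in 27.2% of kept clusters, and all above it for ARRDC3, as in 27.2%. KLF10 was at -0.38 ± 0.15 (limma adjusted p = 0.335), MLXIPL at -0.24 ± 0.14, MLX at 0.13 ± 0.15 and MLXIP at 0.0042 ± 0.15. Above 0 were 3 of 7, against 50.2%, and ARRDC3 alone was 2-fold higher, against 1.69%, with 0 of 7 2-fold lower, against 0.352%. Every one of these differences shares the single vector array.

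By plasmid, TXNIP was 1.07 below the vector with TET1-CD and 1.15 below it with mTET1-CD, and ARRDC4 was 1.32 and 1.22 below. These 2 of 7 genes were at least 2-fold lower, against 1.2% and 1.41% of kept clusters, and 0 were 2-fold higher, against 2.48% and 1.73%. With TET1-FL and mTET1-FL, TXNIP was 0.50 and 0.27 below the vector and ARRDC4 0.54 and 0.57 below. ARRDC3 ran the other way, 0.79 and 0.60 above the vector with the CD pair and 1.74 and 1.66 above it with the FL pair (3.35- and 3.16-fold). It was the 1 gene of 7 at least 2-fold higher with FL, against 3.1% and 2.63% of kept clusters, and 0 were 2-fold lower, against 0.504% and 0.397%. KLF10 was 0.69 and 0.83 below the vector with the CD pair and differed by 0.011 and -0.012 with the FL pair.

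The constructs FL and CD differed in the same direction for all 3 alpha-arrestin genes and KLF10. ARRDC3 was higher with FL by 1.01 ± 0.24, KLF10 by 0.76 ± 0.13, TXNIP by 0.73 ± 0.20 and ARRDC4 by 0.71 ± 0.25, with 2 arrays a side. None passed (limma adjusted p = 0.198, 0.138, 0.239 and 0.324), nor did any of the 28946 clusters (0%), while 3975 clusters (13.7%) and 5 of the 7 genes had an unadjusted p under 0.05. MLX and MLXIP were at -0.40 ± 0.13 and -0.27 ± 0.14 (limma adjusted p = 0.311 and 0.471), and MLXIPL was at -0.047 ± 0.12. Above 0 were 4 of 7, against 50.7%, and ARRDC3 alone was 2-fold higher, against 1.86%, with 0 of 7 2-fold lower, against 0.231%. Both FL arrays were above both CD arrays for the first 4 genes, as in 27.6% of kept clusters, and below them for MLX and MLXIP, as in 25.7%. In cluster 16705381 TET1 signal itself was 1.61 higher with FL, and in 16715048 it was 0.21 lower; its part in these results was not tested.

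Genes around the sensor were taken from lists chosen with earlier results of these arrays known. Within a list all differences come from the same arrays, so signs that genes share, here and below, are not separate evidence. In the alpha-arrestin family, 5 of 6 members were kept, and between transfected and shRNA arrays TXNIP was the 1 called higher, with 0 called lower, against 1.86% and 0.957% of all clusters. Fitted differences were above 0 for 3 of the 5 and below 0 for 2, against 52.7% of all clusters above 0. The remaining members ARRDC1 and ARRDC2 lay between 7.18 and 7.74 and between 6.83 and 7.26 on all arrays. Among the 17 KLF genes, 16 were kept, KLF10 was the 1 called higher and 0 were called lower (1.86% and 0.957% of all clusters), and KLF6 was next at 0.58 ± 0.12 (limma adjusted p = 0.0692). The list's median was 0.14, against 0.016 over all clusters, with 11 of 16 above 0 and 5 below, against 52.7% of all clusters above 0.

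The thioredoxin system, whose thioredoxin is the binding partner of TXNIP, had 9 of 10 genes measured and kept. All 9 were below 0 between transfected and shRNA arrays, where 52.7% of all clusters were above 0. The median was -0.13, against 0.016 over all clusters. The 9 differences come from the same arrays, so their signs are not separate evidence. PRDX1, a peroxiredoxin reduced by thioredoxin, fell by 0.72 on the log2 scale (SE 0.092, limma adjusted p = 0.0419), from 12.04 to 12.18 in the shRNA arrays to between 11.10 and 11.65 in the transfected ones. PRDX3 was at -0.49 ± 0.092 and did not pass (limma adjusted p = 0.0624). TXN itself lay between 10.53 and 10.66 in the shRNA arrays and between 10.16 and 10.39 in the transfected ones. So 1 of 9 was called lower and 0 higher, against 0.957% and 1.86% of all clusters.

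In the network of MAX and MLX partners, 11 of 13 genes were measured and kept, and MXD1, a MAX partner and repressor, rose by 0.93 ± 0.12 (limma adjusted p = 0.0429). It was the 1 of 11 called higher, with 0 called lower, against 1.86% and 0.957% of all clusters, and 4 of the 11 were above 0 and 7 below, against 52.7% above 0. Its levels resembled those of ARRDC3: 7.64, 7.64 and 7.32 in shControl, shTET1#1 and the array labelled shTET1#2, 7.70 with the vector, 8.74 and 8.62 with TET1-CD and mTET1-CD, and 9.20 and 8.98 with TET1-FL and mTET1-FL. Against the vector it was at 1.18 ± 0.18 (limma adjusted p = 0.168). MAX lay between 7.97 and 8.38.

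Enzymes that handle the sugar showed no called member in any of the 5 comparisons. Of all clusters, 2.82% were called in transfected against shRNA arrays and 0% in each other comparison. With so few genes kept, 0 calls is near these shares and is no result about the enzymes. Of 15 genes for glucose uptake and phosphorylation, 4 were measured and 2 kept, the hexokinases HK1 and HK2. HK1 spanned 0.19 and HK2 0.52 over the 8 arrays. Glycolysis had 7 of 19 genes kept, all 7 of them below 0 with the TET1 plasmids against the vector, with a median of -0.25 against 0.0014 over all clusters, of which 50.2% were above 0, PGK1 being lowest at -0.53 ± 0.20 (limma adjusted p = 0.321). The same 7 were also below 0 with TET1 shRNA against the control (median -0.19, with 47.7% of all clusters above 0), and 6 of 7 in transfected against shRNA arrays (median -0.12). All 7 differences against the vector share the 1 vector array, and all 7 with TET1 shRNA share the 1 shControl array. The signs within each comparison are thus not separate evidence. The pentose phosphate pathway had 8 of 9 kept, with H6PD at 0.54 ± 0.13 in transfected against shRNA arrays (limma adjusted p = 0.0886). Lipogenic and sugar-response genes known as ChREBP targets had 12 of 17 kept. In transfected against shRNA arrays 9 of them were below 0 (52.7% of all clusters being above 0), with a median of -0.10. Their signs share the same arrays and are not separate evidence in that comparison. FASN, the fatty acid synthase, and ELOVL6 were at -0.54 ± 0.11 and -0.51 ± 0.11 there (limma adjusted p = 0.0717 and 0.0717), opposite in sign to TXNIP. Of 18 kinase, 14-3-3 and ubiquitin ligase genes that act on the sensor or on TXNIP, 4 were measured. Of these 0 were called, against the same shares of all clusters. ITCH, a ligase for TXNIP, was at 0.28 ± 0.15 against the vector.

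Of the genes whose promoter windows hold 2 half-sites 5 bases apart, as TXNIP has, 11 were kept on the arrays. Only exact matches to CACGNG were searched, so elements of a looser form were not counted. TXNIP was the 1 gene among them at least 2-fold higher in transfected than in shRNA arrays, TIGD1 following at 0.53 (limma adjusted p = 0.0637), and the median of the 11 was 0.17, against 0.0017 over 8288 kept genes with a promoter entry. GFPT1, whose enzyme draws on fructose 6-phosphate, also has the pair and was at 0.16 (limma adjusted p = 0.411). Genes with a perfect E-box, as in ARRDC4 and MLX, numbered 1030, with a median of -0.035, and 0.583% of them were 2-fold higher, against 0.652% of the 8288.

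Over the 8 arrays TXNIP correlated with KLF10 at r = 0.949, with ARRDC4 at 0.890 and with ARRDC3 at 0.728, and ARRDC4 with ARRDC3 at 0.541. MLXIP and MLX correlated at 0.946 with each other and at -0.521 and -0.638 with TXNIP. The 8 arrays share their delivery method in sets of 3 and 5, so these values are descriptions and carry no test. Among 10790 other kept genes, those most like TXNIP were the replication licensing gene CDT1 (r = 0.992), HIVEP2 (0.990), ZKSCAN1 (0.987), the stress response factor gene ATF3 (0.983) and LINC00629 (0.982). CDT1 ran from 8.29 in the array labelled shTET1#2 to 9.81 with the vector, and ATF3 from 6.35 there to 9.10 with TET1-FL. Most like ARRDC4 were KCTD19 (0.984), PAXIP1-DT (0.982), PPDPF (0.980), TIMP3 (0.977) and FICD (0.973). ARRDC3 was most like HBEGF, a growth factor gene (0.989), RNF181 (0.986), ZNF317 (0.985), LOC100507634 (0.984) and TUFT1 (0.983). The 3 lists of 5 have no gene in common, and the values of r rank likeness only.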

How the data were processed

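RNA from 8 cell samples was labelled from 100 ng per array, per the labels' protocols. The deposited values, on a log2 scale by their range, were made with RMA (a method of background correction, normalization between arrays and probe summary) and Affymetrix Expression Console, version 1.3.1, the names listed in the submitters' processing notes. No source used here gives their roles or order, or a genome build. Gene names came from the platform annotation (16098 clusters with 1 symbol), all found by gene number in RefSeq (GRCh38.p14). The remaining clusters are unnamed here. Clusters above the array median on at least 2 of 8 arrays were kept.

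A single linear model in limma 3.58.1 (R 4.3.3) took in all 8 arrays, with terms for control shRNA, TET1 shRNA, vector, wild type, mutant and construct (FL or CD), leaving 2 residual degrees of freedom (the difference between the 2 clones, and that between CD and FL in wild type minus mutant). The p-values measure this spread, not that of replicate cultures, which no label names. P-values are two-sided, adjusted by Benjamini-Hochberg over all 28946 clusters; the fitted SD is the moderated one. The transfected side is the mean of vector, wild type and mutant, and the shRNA side that of control and TET1 shRNA. Pairs of single arrays have no test; past 2-fold they count as apart. The number of arrays limits every value.

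The members and gene lists were chosen with earlier results of these data known. Genes named are the 7 members, TET1, markers, some of the 2 members of each list with the largest difference per comparison, and the 5 genes most like TXNIP, ARRDC4 and ARRDC3 by Pearson r. Other list members that met this rule are not named, and which were named was chosen after their values were seen. The same holds for list members named beyond the rule (TXN, MAX, ARRDC1, ARRDC2), GFPT1 and TIGD1. Promoters came from RefSeq, with entries for 6 of 7 members (none for KLF10). The model was tested on simulated data. Given 2 residual degrees of freedom, a count of 0 calls does not show that no gene differed. Alternatives were other filters, scalings, priors, cluster choices and arrays left out.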

Additional observations from a re-analysis of the deposited data

Results flagged for a closer look

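In 5 cases a member moved one way in 1 construct and the other way in the other; none of these differences was tested. Wild type minus mutant was 0.084 with CD and -0.23 with FL for TXNIP, -0.10 and 0.031 for ARRDC4, and -0.012 and 0.047 for MLXIP, with 1 array on each side. Against the vector, MLX was 0.33 higher on average with the 2 CD arrays and 0.064 lower (-0.064) with the 2 FL arrays, and MLXIP was at 0.14 and -0.13, all sharing the 1 vector array.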

How the results depend on the processing

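Of the member differences recomputed under an alternative, 348 kept their sign or were 0 and kept their side of the threshold, 12 newly passed it, 10 no longer passed it and 15 changed sign. The count of calls in transfected minus shRNA arrays (815) was 0 without the filter and 1883 with a prior that follows mean level. Leaving out 1 array gave 0 to 1973 calls, namely 0 without any 1 plasmid array, 1879 and 1973 without either TET1 shRNA clone and, chosen after seeing the data, 1768 without the vector and 160 without the control clone. Fewer residual degrees of freedom remain without a plasmid array or clone. TXNIP stayed between 1.60 and 2.05 there in 14 alternatives and passed in 9, KLF10 between 1.39 and 1.57 and passed in 9, ARRDC3 between 1.01 and 1.57 and passed in 8, and ARRDC4 between 0.69 and 1.16 and passed in 4 (limma adjusted p from 0.00876 to 0.408 over these).

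Knockdown gave 5 calls with named genes only and plasmids minus vector 1 with median centring, no member among them. Signs reversed, none of these values being called, for knockdown without shTET1#1 in ARRDC4 (range over both clones left out -0.16 to 0.53), without shTET1#2 in ARRDC3 (-0.39 to 0.25) and MLX (-0.15 to 0.050), and with the vector as control in ARRDC4 (-1.50), KLF10 (-1.64), MLXIPL (-0.32), MLX (0.25) and MLXIP (0.076). They also reversed for wild type minus mutant without CD in ARRDC4 (0.031) and without FL in TXNIP (0.084) and MLXIP (-0.012), and for plasmids minus vector in MLXIP with median centring (-0.0054), cyclic loess (-0.010) and without mTET1-CD or TET1-FL (-0.010, the range over plasmid arrays left out being -0.010 to 0.019). Averaging both TXNIP clusters gave a range of 2.54. The cause of these changes was not tested. The counts of 4 genes with a 2-fold range and 10 single-array differences past 2-fold were the same in the 3 alternatives run. No paired analysis was possible because no 2 groups share replicate numbers in the labels, apart from the match of wild type and mutant by construct, which the model's construct term already holds.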
